A study of Homo sapiens with 7 samples.

Results

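The 35 genes described here carry out or govern DNA replication and entry into S phase: the helicase that unwinds DNA, the factors that load and start it, polymerases, the sliding clamp, nucleotide synthesis and the cyclin E and E2F switch. They were taken by symbol from a list, with no measured value in the rule, out of 32738 gene rows, and all 35 were found. The list was, however, chosen with earlier results of these data known. RNA came from HUDEP-2 cells, an immortalised human erythroid progenitor line from cord blood. The cells of all 7 libraries were grown with SCF, erythropoietin, dexamethasone and doxycycline. They received CRISPR interference constructs by lentivirus, which bring a repressor to the DNA that a guide RNA matches, and spent 72 h in differentiation medium at 3 IU/ml erythropoietin. The groups were a non-targeting guide (3 libraries) and 2 guides, guide 1 and guide 2 (2 libraries each), aimed at an enhancer of TMCC2, a transmembrane protein gene with an erythroid isoform. The comparison asks how RNA levels with these guides differ from those with the non-targeting guide. The labels do not say whether the infected cells were clones or pools.

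As background, replication origins are licensed in G1, when the origin recognition complex with CDC6 and CDT1 loads the MCM2 to MCM7 hexamer onto DNA. CDC45 and the GINS complex then turn the hexamer into an active helicase, polymerases copy the strands behind it, and ribonucleotide reductase and thymidylate synthase supply the deoxynucleotides. Most of these genes are transcribed under E2F factors at the G1 to S boundary. In the red cell lineage, S phase and maturation are coupled, and the last divisions precede condensation and loss of the nucleus.

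Libraries held 9780800 to 11350113 counts, of which these 35 genes took 0.0871% to 0.0976%. TMCC2 stood at 870 ± 58.6 CPM (counts relative to the TMM-scaled library size, times 1e6; SD, n = 3) in the non-targeting libraries and at 234 ± 18.01 CPM (SD, n = 4) with a guide, 27.0% of the former, which matches the labels. The 10 erythroid markers summed to 223513 to 260709 CPM of total counts. Markers of neutrophils, monocytes and lymphocytes were near 0: 3 of 10 neutrophil and monocyte markers (MPO, S100A8, S100A9) and 5 of 8 lymphocyte markers had no count in any library, and the summed levels of these lists reached at most 4.56 CPM. The mast cell and basophil list, nearly all TPSAB1 and with HDC and MS4A2 at 0, summed to 9.69 to 12.1 CPM in the controls, 10.5 to 10.9 CPM under guide 1 and 7.63 to 8.64 CPM under guide 2. The megakaryocyte and platelet list, nearly all TUBB1 and ITGA2B and with PF4 and PPBP at 0, summed to 177 to 208, 205 to 214 and 183 to 198 CPM in the same order. The part of these markers in the results was not tested. Progenitor markers (8 genes, of which HMGA2 was at 0) summed to 110 to 138 CPM in the non-targeting libraries, 104 to 110 CPM with guide 1 and 111 to 114 CPM with guide 2. On the TMM scale, MYC of this list stood at 28.6, 27.2 and 28.4 CPM in the controls. It was at 26.9 and 22.6 CPM with guide 1 and 21.5 and 18.7 CPM with guide 2. Its groups did not overlap, as for 2.37% of all tested genes in that direction, while those of the other members did. The part of MYC in the results was not tested. Non-targeting replicate 1 stood apart: the log2 deviations of its genes had a Spearman rho of -0.69 with transcript GC content across genes, against -0.31 to 0.42 in the other 6 libraries.

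The promoters of these genes are shown first, since shared E2F control is what ties the list together in the textbook. RefSeq windows (GRCh38.p14, 250 bases before to 50 after a start) were matched by symbol for 31 of the 35 genes, with 39 windows. MCM4, CCNE2, MCM5 and RPA2 had no window. The E2F motif was searched as TTTCCCGC, TTTCGCGC, TTTGCCGC and TTTGGCGC on both strands; these spellings can overlap each other. It was present in 17 of the 31 genes (54.8%), against 3.99% of all 27305 genes with a window, a comparison not matched for base composition. CCAAT was found on either strand in 19 of 31 (61.3%) against 39.7% of all genes, and GGGCGG, the GC box, in 24 of 31 (77.4%) against 48.3%. By role, E2F letters were in each of the 4 matched helicase genes (MCM2, MCM3, MCM6 and MCM7) and in 3 of 5 helicase activators. They were also in 2 of 5 genes of nucleotide supply and uracil removal, TYMS and UNG. A match is a description of letters, not a bound site.

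The 250 bases before the start are printed for 4 genes, 5′ to 3′ on the strand of the gene, with E2F and CCAAT letters in capitals. MCM6 (chr2:135876444-135876693, minus strand) holds the most E2F matches of the list, in 2 overlapping pairs. E2F1 (chr20:33686386-33686635, minus strand) is itself an E2F factor. TYMS (chr18:657403-657652, plus strand) and RRM2 (chr2:10122489-10122738, plus strand) are nucleotide supply genes given in full below, and neither passed adjustment there. The first has an E2F match and the second CCAAT alone. The coordinates are GRCh38, while the counts were made on GRCh37.
MCM6: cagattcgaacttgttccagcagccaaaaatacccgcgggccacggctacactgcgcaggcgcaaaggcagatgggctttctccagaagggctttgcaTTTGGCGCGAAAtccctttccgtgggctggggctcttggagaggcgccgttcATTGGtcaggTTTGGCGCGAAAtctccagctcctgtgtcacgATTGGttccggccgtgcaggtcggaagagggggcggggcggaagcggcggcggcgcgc
E2F1: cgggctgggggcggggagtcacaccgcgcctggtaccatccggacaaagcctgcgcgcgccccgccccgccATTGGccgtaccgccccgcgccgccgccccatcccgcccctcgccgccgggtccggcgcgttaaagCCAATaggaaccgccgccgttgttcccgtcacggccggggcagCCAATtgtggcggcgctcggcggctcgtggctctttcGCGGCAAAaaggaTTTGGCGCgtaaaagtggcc
TYMS: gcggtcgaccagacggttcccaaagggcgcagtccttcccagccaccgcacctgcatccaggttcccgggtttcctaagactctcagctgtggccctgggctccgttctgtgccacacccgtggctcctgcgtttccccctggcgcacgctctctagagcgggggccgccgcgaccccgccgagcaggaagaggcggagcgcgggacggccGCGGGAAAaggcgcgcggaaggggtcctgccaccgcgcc
RRM2: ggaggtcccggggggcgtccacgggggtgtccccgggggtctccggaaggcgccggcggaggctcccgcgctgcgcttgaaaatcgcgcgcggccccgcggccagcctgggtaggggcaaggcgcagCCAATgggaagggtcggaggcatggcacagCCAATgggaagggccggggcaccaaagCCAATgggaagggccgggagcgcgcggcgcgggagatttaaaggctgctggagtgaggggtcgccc

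MCM6 thus carries 4 E2F matches and 2 CCAAT boxes in this stretch, E2F1 carries 2 and 3, TYMS 1 and 0, and RRM2 0 and 3. RRM2 has a further annotated start, whose upstream stretch held 1 CCAAT and no E2F spelling. SLBP, RRM1, RFC5, TK1 and CDC45, which are named in the comparisons below, had none of the 4 E2F spellings in their windows.

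Levels within the machinery were compared per length, as CPM per kb of the longest protein-coding transcript in GENCODE v29. The choice of length matters: with the median length of a gene's protein-coding transcripts, a setting chosen after seeing the data, several orders differ, as given below. By the longest transcript, the most abundant in the non-targeting libraries were RPA2, a subunit of the single-strand DNA binding complex, at 50.3 ± 2.35 CPM per kb (SD, n = 3), MCM2 at 44.8 ± 8.41 and the sliding clamp gene PCNA at 39.2 ± 2.14. RPA2 and MCM2 did not differ beyond their spread. By the median length, MCM2 led at 91.7, followed by RPA2 at 75.9, TK1 at 63.9 and MCM5 at 63.3, and PCNA was the fifth at 39.5 CPM per kb. By the longest transcript, the lowest were GINS1 at 0.407 ± 0.0090, E2F1 at 0.443 ± 0.24 and the cyclin gene CCNE2 at 0.466 ± 0.11 CPM per kb, whose spreads overlap. CCNE2 exons share 1629 bases with INTS8 on the opposite strand, so its level may include or lose some reads.

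The 6 helicase subunits form a ring with 1 copy of each, yet their mRNA levels differed widely. After MCM2 came MCM7 at 28.5 ± 3.94 and MCM5 at 28.1 ± 3.66 CPM per kb, which were not separated by their spread, though by the median length MCM5 stood at 63.3 and MCM7 at 29.8. MCM3 stood at 9.11 ± 1.26 and MCM4 at 8.68 ± 0.62, and MCM6 was lowest at 3.24 ± 0.31 CPM per kb (SD, n = 3 each). The spreads of MCM3 and MCM4 overlap, and by the median length MCM4, at 12.3, was above MCM3, at 9.48. Across the 7 libraries the per-kb level of MCM2 was 14.7 ± 2.49 times (SD, n = 7) that of MCM6, with a range of 10.3 to 17.3. With the median length this ratio was 30.1. That length is 1768.5 bases for MCM2, whose longest form has 3622, and 3736 by either measure for MCM6. MCM2 exons share 1113 bases with AC023593.1 and 45 with TPRA1, both on the opposite strand, and the libraries do not mark strand. Transcript GC content also differs, at 57.5% for MCM2 and 43.1% for MCM6, and its part in the ratio was not tested.

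Members of other complexes are given by the longest transcript too. In the clamp loader, which opens PCNA and places it on DNA, RFC3 stood at 13.2 ± 2.57, RFC5 at 5.56 ± 0.28, RFC4 at 3.92 ± 0.67 and RFC2 at 1.93 ± 0.35 CPM per kb. By the median length RFC3, at 21.7, and RFC5, at 21.6, were level. In GINS, GINS3 was at 1.83 ± 0.53 and GINS2 at 1.34 ± 0.31, both above GINS1. By the median length GINS2, at 5.74, was above GINS3, at 2.15. In ribonucleotide reductase, the small subunit RRM2 was at 22.1 ± 1.37 and the large subunit RRM1 at 15.5 ± 1.47 CPM per kb. In the origin recognition complex, ORC1 was at 6.95 ± 0.73 and ORC6 at 3.41 ± 1.25 CPM per kb (SD, n = 3 throughout). FEN1, a flap nuclease of lagging strand synthesis, ranked 10 by the longest and 6 by the median form, and RFC5 ranked 17 and 10.

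**Figure D1:**
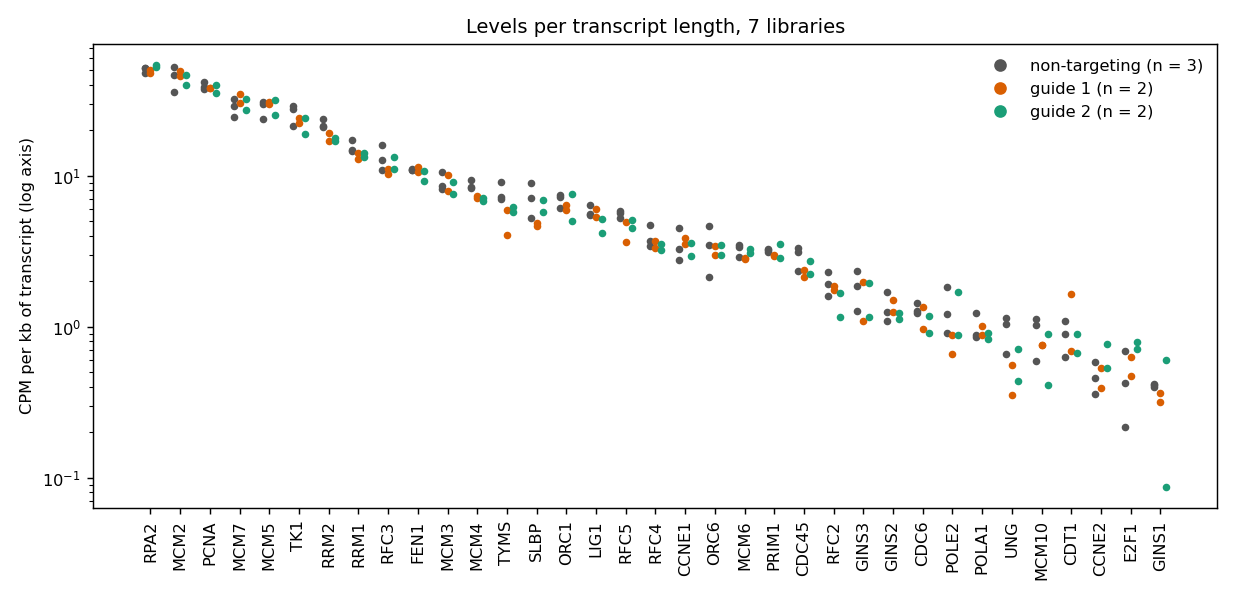
Level of each of the 35 genes in CPM per kb of the longest transcript (vertical log axis), 1 point per library, coloured by group (3 non-targeting, 2 guide 1, 2 guide 2) and ordered by the non-targeting mean. RPA2, MCM2 and PCNA lead at 50.3, 44.8 and 39.2 CPM per kb and GINS1 is last at 0.407.

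For both guides together against non-targeting, 0 of the 35 genes passed an adjusted p under 0.05 in edgeR, where 0.0196% of all 10212 tested genes did. DESeq2 called 0 as well. All 35 passed the filter on low counts, and 32 had at least 10 counts in each library. At an unadjusted p under 0.05 there were 5, all with negative log2 fold changes (RRM2, TYMS, MCM4, UNG and SLBP), or 14.3% of the list. Of all tested genes, 4.19% did so, 2.4% lower and 1.79% higher. With DESeq2 this count was 3. Fold changes were negative for 28 of 35, with a median of -0.18 on the log2 scale, where 53.9% of all tested genes were negative and their median was -0.01. In 5 genes (RRM2, TYMS, MCM4, RRM1 and RFC5) each of the 4 guide libraries lay below each of the 3 non-targeting libraries, which holds for 2.37% of all tested genes. In 0 of 35 did each guide library lie above, against 3.03% of all. In bulk RNA, fewer cells in S phase and less RNA per cell cannot be told apart. Whether replicates came from separate cultures is not in the labels. A p-value here therefore reflects library-to-library spread that may be technical.

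**Figure D2:**
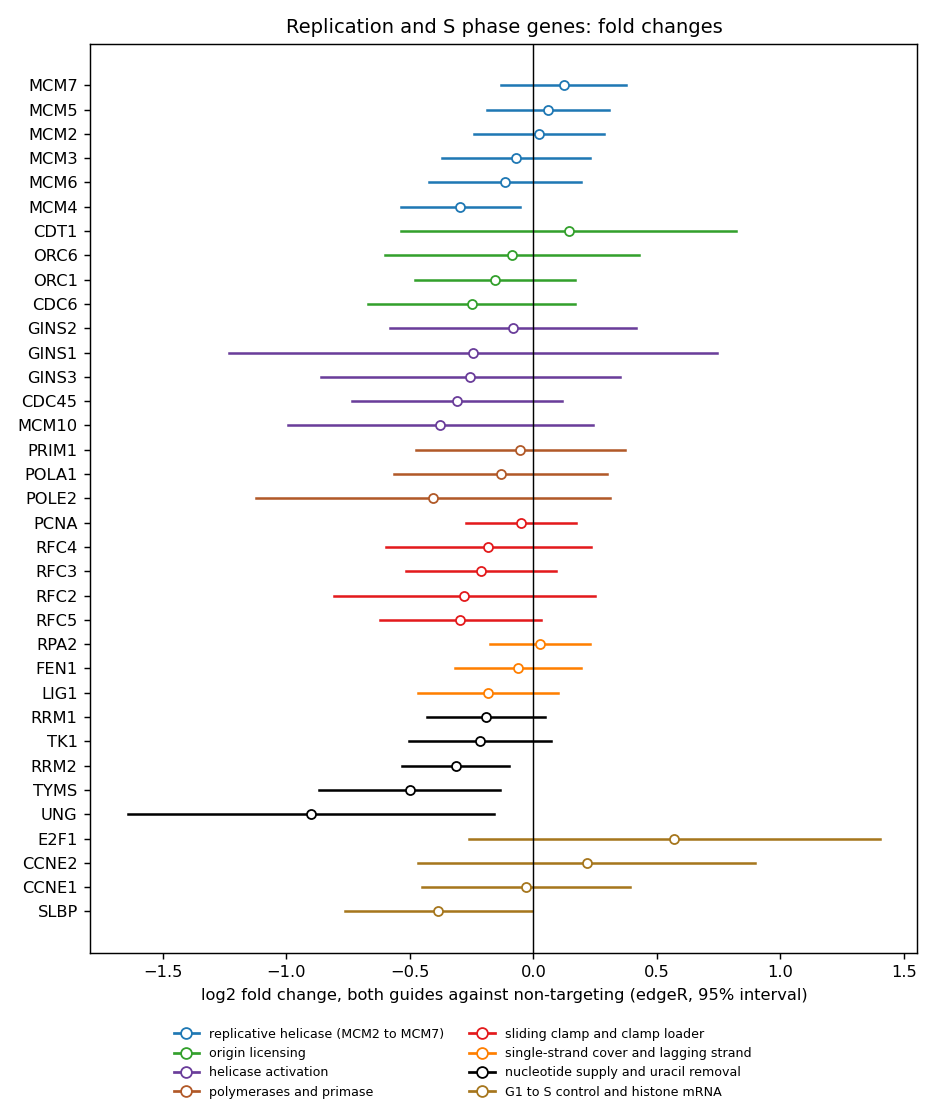
Log2 fold change (horizontal axis) by gene for the pooled guides relative to the controls (points, edgeR) with 95% intervals (lines), grouped and coloured by role; open points mark genes that did not pass an adjusted p under 0.05. Intervals that lie below 0 are those of MCM4, RRM2, TYMS, UNG and, at its edge, SLBP. The 5 genes of nucleotide supply and uracil removal all lie left of 0.

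All 5 genes of nucleotide supply and uracil removal (RRM1, RRM2, TYMS, TK1 and UNG) had negative fold changes. So did all genes of helicase activation, of the polymerases and of the clamp and its loader. Of the 5, 3 (60%) reached an unadjusted p under 0.05: RRM2, TYMS and the uracil removal gene UNG. That level was reached by 4.19% of all tested genes, 2.4% lower and 1.79% higher. None of the 3 passed adjustment. RRM2, the S phase-regulated subunit of ribonucleotide reductase, stood at 86.9, 79.1 and 77.6 CPM in the controls, at 71.0 and 62.3 CPM under guide 1, and at 65.7 and 62.3 CPM under guide 2. The groups did not overlap. Controls averaged 81.2 ± 5.02 CPM (SD, n = 3) and guide libraries 65.3 ± 4.12 CPM (SD, n = 4). The log2 fold change was -0.31 (SE 0.10, 95% interval -0.53 to -0.10). It did not pass adjustment (unadjusted p = 0.00773, adjusted p = 0.998, edgeR). RRM2 exons share 1077 bases with those of AC007240.1 on the same strand (GENCODE v29). The pseudogenes RRM2P2, RRM2P3 and RRM2P4 are named after RRM2, so its counts may include or lose some reads.

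RRM1, the large subunit, stood at 53.0, 44.9 and 45.6 CPM in the controls, at 43.2 and 39.6 CPM under guide 1, and at 43.9 and 40.7 CPM under guide 2. The groups did not overlap, but the highest guide library and the lowest control lay close together. The log2 fold change was -0.19 (SE 0.11, 95% interval -0.43 to 0.05). It was -0.11 without non-targeting replicate 1, whose level was the highest.

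TYMS makes thymidylate, the precursor of the thymine base of DNA. Its levels were 15.0, 11.6 and 12.1 CPM in the controls, 6.70 and 9.90 CPM under guide 1, and 9.63 and 10.4 CPM under guide 2. No guide library reached a control. Controls averaged 12.9 ± 1.85 CPM (SD, n = 3) and guide libraries 9.15 ± 1.67 CPM (SD, n = 4). The log2 fold change was -0.50 (SE 0.17, 95% interval -0.87 to -0.14; unadjusted p = 0.0108, adjusted p = 0.998, edgeR). The counts behind these levels were 170, 129 and 112 in the controls, 68 and 106 under guide 1, and 103 and 110 under guide 2. TYMS exons share 967 bases with those of ENOSF1 on the opposite strand (GENCODE v29), which had 166 to 258 counts, and Smart-seq2 does not mark strand, so reads from the shared part cannot be told apart.

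TK1, which salvages thymidine, overlapped between groups: 35.8, 46.7 and 48.5 CPM in the controls, 40.6 and 37.4 CPM under guide 1, and 40.7 and 31.8 CPM under guide 2. Its log2 fold change was -0.21 (SE 0.13). Non-targeting replicate 1 was the low control here, and without it the value was -0.34 (adjusted p = 0.107, edgeR). Without non-targeting replicate 3, the high control, it was -0.13. UNG, which cuts uracil out of DNA, was scarce, at 25, 27 and 13 counts in the controls, 12 and 8 under guide 1, and 10 and 16 under guide 2. Its log2 fold change of -0.90 (SE 0.35) is the lowest of the 35 and the groups overlap. Summed over the 5 genes, nucleotide supply and uracil removal stood at 193, 185 and 185 CPM in the controls, 163 and 150 CPM under guide 1, and 161 and 147 CPM under guide 2. No guide library reached a control in that sum. By group mean its largest terms were RRM2 and RRM1, which were already without overlap singly. No share over all tested genes is at hand for such a sum. In each of the other 7 roles the summed levels of guide libraries and controls overlapped. Helicase activation, for instance, ran from 16.5 to 23.2 CPM in the controls and from 15.6 to 17.3 CPM with a guide. For the clamp and its loader the overlap was narrow, with controls at 117.65, 100.42 and 104.93 CPM. The guide libraries there stood at 98.4 and 93.97 CPM under guide 1 and 98.65 and 100.53 CPM under guide 2.

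**Figure D3:**
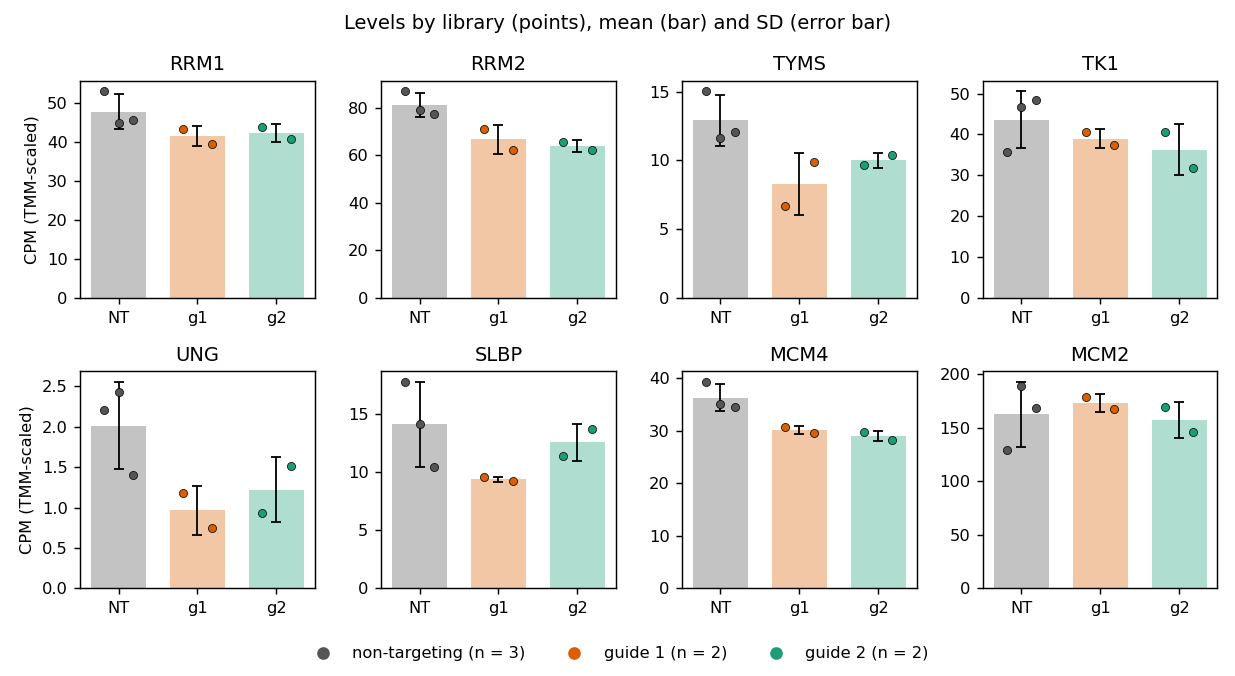
TMM-scaled CPM (vertical axes, from 0) of 8 genes in the non-targeting (NT), guide 1 (g1) and guide 2 (g2) libraries; points are libraries, bars group means and error bars SDs. RRM1, RRM2, TYMS and MCM4 show no overlap between guide libraries and controls, TK1, UNG, SLBP and MCM2 do, and MCM2 averages 162 CPM in the controls against 165 CPM with a guide.

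None of the 6 helicase subunits passed the test. Fold changes were negative for 3 and positive for 3, but negative for 5 and positive for 1 without non-targeting replicate 1. MCM4 stood at 39.3, 35.03 and 34.6 CPM in the controls, at 30.7 and 29.6 CPM under guide 1, and at 29.7 and 28.3 CPM under guide 2, without overlap. Its log2 fold change was -0.30 (SE 0.11, 95% interval -0.54 to -0.05; unadjusted p = 0.0196, adjusted p = 0.998, edgeR). The partners in the same ring lay on both sides of 0: MCM7 at 0.12 (95% interval -0.13 to 0.38), MCM5 at 0.06, MCM2 at 0.02 (95% interval -0.24 to 0.29), MCM3 at -0.07 and MCM6 at -0.11. Their groups overlapped. Without non-targeting replicate 1, MCM2 was at -0.12, MCM5 at -0.044 and MCM7 at 0.020, so MCM2 and MCM5 then had the other sign. MCM2 and MCM5 were also negative without guide 2 replicate 1 (-0.035 and -0.026), and MCM3 was positive without non-targeting replicate 2 (0.050). MCM2 in non-targeting replicate 1, at 129 CPM, was below every other library, while MCM4 was highest there. MCM2, MCM5 and MCM7 have transcripts of 57.5%, 59.9% and 58.1% GC, and MCM3, MCM4 and MCM6 of 51.6%, 49.1% and 43.1%. Exons of MCM7 share 392 bases with AP4M1 on the opposite strand.

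Among the licensing genes, which load the ring, 0 of 4 reached an unadjusted p under 0.05. CDC6 differed by -0.25 (SE 0.20), ORC1, the largest subunit of the origin recognition complex, by -0.16 (SE 0.15), ORC6 by -0.09 (SE 0.24) and CDT1 by 0.14 (SE 0.32). Without non-targeting replicate 1, ORC6 was at 0.22 and CDT1 at -0.051. CDT1 reached 54 counts in guide 1 replicate 1 and lay between 23 and 33 in the other 6 libraries.

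The 5 genes of helicase activation all had negative values and none reached an unadjusted p under 0.05. CDC45, the partner that completes the active helicase, stood at 4.86, 6.93 and 6.57 CPM in the controls, at 4.43 and 4.95 CPM under guide 1, and at 4.68 and 5.66 CPM under guide 2. Non-targeting replicate 1 lay among the guide libraries. The log2 fold change was -0.31 (SE 0.20), and it was -0.46 without that library (adjusted p = 0.386, edgeR) and -0.20 without non-targeting replicate 2. MCM10, which helps to start the helicase, differed by -0.38 (SE 0.29), GINS3 by -0.26, GINS1 by -0.25 and GINS2 by -0.08. GINS1 had 3 counts in guide 2 replicate 2 and 11 to 21 in the others, so little can be detected at this depth, as its interval of -1.23 to 0.74 shows.

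The polymerase and clamp genes were also without a call. PCNA, the ring that tethers polymerases, was among the most even of the list, at 56.5, 52.6 and 50.8 CPM in the controls, 52.0 and 51.8 CPM under guide 1, and 54.2 and 48.0 CPM under guide 2. Its log2 fold change was -0.05, with an interval of -0.27 to 0.17. RFC5 stood at 13.8, 12.9 and 14.2 CPM in the controls, at 12.0 and 8.87 CPM under guide 1, and at 11.03 and 12.6 CPM under guide 2. Those groups did not overlap, and the log2 fold change was -0.30 (SE 0.15, 95% interval -0.62 to 0.03), or -0.19 without guide 1 replicate 2. RFC5 exons share 186 bases with WSB2, which had 62 to 89 counts, and 160 with AC131159.2, both on the opposite strand. The pseudogene RFC5P1 is named after RFC5, so its counts may include or lose some reads. RFC2 differed by -0.28, RFC3 by -0.21 and RFC4 by -0.18. The catalytic subunit gene of polymerase alpha, POLA1, differed by -0.13 (SE 0.20; 0.059 without non-targeting replicate 1), the primase gene PRIM1 by -0.05 (SE 0.20) and POLE2, a subunit of the leading strand polymerase, by -0.41 (SE 0.33). RPA2 differed by 0.03 (95% interval -0.18 to 0.23) and FEN1 by -0.06 (95% interval -0.32 to 0.19). LIG1, which seals nicks between Okazaki fragments, differed by -0.18 (SE 0.13).

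Of the G1 to S genes, SLBP, which binds the stem-loop of histone mRNA and is needed for its processing, stood at 17.8, 14.1 and 10.4 CPM in the controls, at 9.55 and 9.25 CPM under guide 1, and at 11.4 and 13.7 CPM under guide 2. The controls spread widely and overlapped with guide 2. The log2 fold change was -0.38 (SE 0.18; unadjusted p = 0.0477, adjusted p = 0.998, edgeR) and it was -0.19 without non-targeting replicate 1. The cyclin E genes, whose kinase partner triggers origin firing, differed by -0.03 (SE 0.20, CCNE1) and 0.22 (SE 0.32, CCNE2). CCNE2 had 11 to 27 counts, and its exons share 1629 bases with INTS8 on the opposite strand, which had 62 to 162. Reads from the shared part cannot be told apart. E2F1 had the highest value of the list, 0.57 (SE 0.39), from 12, 6 and 16 counts in the controls, 12 and 17 under guide 1, and 19 and 21 under guide 2.

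The position of non-targeting replicate 1 bears on many of these values. Its log2 CPM minus the mean of the other controls was 0.4 or more in 7 of the 35 genes, up to 0.75 in POLE2 and 0.74 in ORC6, and -0.4 or less in 5, down to -0.81 in MCM10 and -0.61 in CDT1. Across the 35 genes this deviation had a Pearson r of -0.49 and a Spearman rho of -0.49 with transcript GC content, which runs from 36.6% in CCNE2 to 66.0% in CDT1. The 35 points share 1 library, and across the 9428 tested genes with a GC value the rho was -0.70. This library was the highest of the 7 in 13 of the 35 genes (37.1%) and in 29.7% of all tested genes. Guide 2 replicate 2, whose rho with GC content was -0.31, was the lowest in 12 (34.3%), against 12% of all tested genes. Guide 1 replicate 2 was the highest in 0 of 35, against 10.8%.

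Without non-targeting replicate 1, 0 of the 35 genes were called, the median fold change was -0.14, and 7 genes had an unadjusted p under 0.05, all lower, where 10.5% of all tested genes reached that level. With a correction for GC content the median was -0.15, and RRM2 (-0.27, adjusted p = 0.295), MCM4 (-0.30, adjusted p = 0.299) and TYMS (-0.51, adjusted p = 0.299, edgeR) were again not called. The part of GC content in the differences was not tested beyond these fits.

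**Figure D4:**
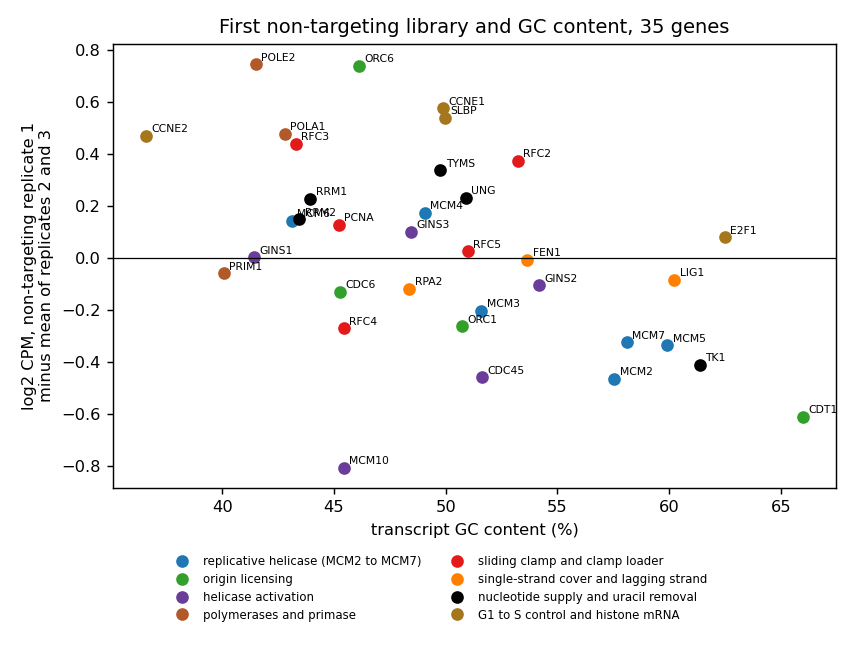
Log2 CPM of non-targeting replicate 1 minus the mean of replicates 2 and 3 (vertical axis) against transcript GC content in percent (horizontal axis), 1 point per gene, coloured by role. POLE2, at 41.5% GC, lies above 0 (0.75) and CDT1, at 66.0% GC, below it (-0.61), with a Spearman rho of -0.49 over the 35 genes. Some genes go the other way, such as MCM10 (45.4% GC, -0.81) and E2F1 (62.5% GC, 0.08).

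The guides were then taken singly; both comparisons use the same 3 controls. With guide 1, 0 of 35 genes were called in edgeR or DESeq2 (0.0294% of all tested genes in edgeR), 4 had an unadjusted p under 0.05, all lower, and DESeq2 gave 3. Of all tested genes, 4.78% did so in edgeR, 2.81% lower and 1.97% higher. Values were negative for 27 of 35, against 51.5% of all tested genes. In 11 of 35 (31.4%) both guide 1 libraries lay below the controls, against 10.3% of all, and in 0 both lay above, against 11.3%. The median was -0.15. TYMS had -0.63 (SE 0.21, adjusted p = 0.877), SLBP -0.59 (SE 0.22, adjusted p = 0.877) and RRM2 -0.28 (SE 0.12, adjusted p = 0.877, edgeR). TYMS differed between the guide 1 libraries: it was -0.95 without guide 1 replicate 2 and -0.38 without guide 1 replicate 1.

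With guide 2, 0 of 35 were called by either tool (0.00979% of all in edgeR) and 2 had an unadjusted p under 0.05, RRM2 and MCM4, both lower. Of all tested genes, 2.75% did so, 1.17% lower and 1.59% higher. DESeq2 also gave 2. Values were negative for 29 of 35, against 55.3% of all tested genes. In 8 of 35 (22.9%) both guide 2 libraries lay below the controls, against 6.86% of all, and in 2 (E2F1 and RPA2) both lay above, against 8.16%. The median was -0.18. RRM2 had -0.34 (SE 0.12), MCM4 -0.32 (SE 0.14) and LIG1 -0.33 (SE 0.16), each with an adjusted p of 0.999 (edgeR). LIG1 stood at 22.2, 25.3 and 21.9 CPM in the controls, at 21.0 and 23.9 CPM under guide 1, and at 20.4 and 16.5 CPM under guide 2. Its value was -0.48 without guide 2 replicate 1 and -0.18 without guide 2 replicate 2.

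Compared directly, guide 2 and guide 1 differed at 0 of the 35 genes (0% of all tested genes called), with 0 at an unadjusted p under 0.05 in edgeR and in DESeq2, against 2.86% of all tested genes in edgeR, 1.27% lower and 1.59% higher. Values were negative for 18 of 35, against 49.7% of all tested genes, with a median of -0.02. Among genes that averaged at least 5 CPM in a group, the smallest p-values belonged to SLBP, at 0.42 (SE 0.24, 95% interval -0.09 to 0.93), LIG1, at -0.28 (95% interval -0.66 to 0.09; -0.44 without guide 2 replicate 1 and -0.14 without guide 2 replicate 2), and TYMS, at 0.27 (95% interval -0.23 to 0.76), which was 0.015 without guide 1 replicate 1. These intervals leave room for differences of either sign.

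Genes of replication outside the list were read in the same fit. Of 53 such genes, 50 were tested and 0 called for both guides by edgeR. Values were negative for 39 (78%), against 53.9% of all tested genes, with a median of -0.15. An unadjusted p under 0.05 was reached by 2 (4%), close to the 4.19% of all tested genes. These were POLA2, the regulatory subunit of polymerase alpha, at -0.46 (SE 0.19), and CTPS1, which makes CTP, at -0.35 (SE 0.16). POLE3, a histone-fold subunit of polymerase epsilon, stood at 117, 119 and 117 CPM in the controls, at 106 and 104 CPM under guide 1, and at 105 and 109 CPM under guide 2. Those groups did not overlap, as for 2.37% of all tested genes in that direction, and the log2 fold change was -0.15 (SE 0.09, adjusted p = 0.998, edgeR). POLD2, a subunit of the lagging strand polymerase, differed by -0.25 (SE 0.13), the fork protection gene TIPIN by -0.36 (SE 0.19), the histone chaperone genes ASF1B by -0.28 (SE 0.18) and ASF1A by -0.22 (SE 0.15), and the topoisomerase gene TOP2A by -0.17 (SE 0.12). With guide 1 alone the median of these 50 genes was -0.22, and with guide 2 it was -0.08.

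Set by promoter, the 17 genes with E2F letters had 13 negative values and a median of -0.13 for both guides, and the 14 matched genes without them had 14 negative values and a median of -0.20. No test was made of this difference, and the search covered 4 spellings in 300 bases.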

How the data were processed

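RNA from 7 HUDEP-2 libraries was made with Smart-seq2, per the labels, a full-length cDNA protocol that does not mark strand and has no molecular identifiers, so PCR copies count as reads. The authors deposited raw counts per gene symbol, 1 column per library and unscaled, per the file headers. STAR is named as the aligner and GRCh37 (hg19) as the build, per the submitters' processing notes; the counter, annotation and treatment of multiply aligned reads are not stated in these sources. In GENCODE v29, 13 of the 35 genes share exon bases with another gene and 8 have pseudogenes named after them, so their counts may include or lose some reads.

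Testing used edgeR 4.0.16 (R 4.3.3): filterByExpr (minimum count 10), TMM scaling, a quasi-likelihood fit with the 3 groups as its only term on all 7 libraries (4 residual degrees of freedom), two-sided tests, Benjamini-Hochberg adjustment over 10212 genes and a threshold of 0.05. Standard errors and 95% intervals came from that fit. DESeq2 1.42.0, total-count scaling, no filter, a replicate block, a GC correction, fits of the compared groups alone and leaving out each library were alternatives. The GC correction used a lowess (span 0.3) per library on median transcript GC, known for 92.3% of tested genes. The fit was tested on simulated data. All members are named; full values go to the 8 genes of smallest unadjusted p for both guides and 3 in each other comparison, if they average 5 CPM or more in a group, and to up to 8 other replication genes chosen alike. UNG, E2F1, RPA2, PCNA, CDT1 and GINS1 fall outside that rule and were given further values after these were seen. The genes and lists were chosen with earlier results of these data known.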

Additional observations from a re-analysis of the deposited data

How the results depend on the processing

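None of the 35 genes was called in any of the 4 comparisons under any setting run, and the genes given in full (the first 8 by p for both guides and the first 3 in the others) kept their sign. For both guides, 11 of the 35 had the other sign in at least 1 setting (CCNE1, CDT1, GINS1, GINS2, MCM2, MCM3, MCM5, ORC6, POLA1, PRIM1 and RPA2), and the number of negative values ran from 25 (without guide 2 replicate 2) to 30 (without guide 2 replicate 1). Over all tested genes, the count for both guides was 2, and it was 4 with DESeq2, 8 with no low-count filter, 1 with a replicate block, 10 with GC correction and 1 to 53 with a library left out. For guide 1 it was 3, and 6 with DESeq2, 19 without a filter, 20 with GC correction and 1 to 59 with a library left out. For guide 2 it was 1, and 3 with DESeq2, 4 without a filter, 4 with GC correction and 1 to 128 with a library left out. For guide 2 against guide 1 it was 0, and 2 with DESeq2, 2 without a filter, 1 with a replicate block, 2 with GC correction, 19 in a fit of those groups alone and 0 to 32 with a library left out. The highest count in each range came without non-targeting replicate 1, which enters the last comparison by way of filtering, scaling and the pooled spread.

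With a library left out, the median fold change of the 35 genes ran from -0.19 to -0.13 for both guides, from -0.21 to -0.11 for guide 1, from -0.20 to -0.13 for guide 2 and from -0.086 to 0.062 for guide 2 against guide 1. The last was 0.045 with total counts in place of TMM, which moved the median of all genes to 0.07 there. Where a guide kept 1 library, it was assumed to vary like the others. The cause of these shifts was not tested. The fit of compared groups alone was not run for both guides, which use every group.

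Same-numbered libraries of 2 groups showed little shared deviation, with r of -0.19 to 0.03 across genes. Between the guides, with 2 libraries each, replicates 1 and 2 necessarily gave the same r. Whether same-numbered libraries share a culture or batch is thus not settled by this check. With a replicate block the median of the 35 genes was -0.19 for both guides, -0.12 for guide 1, -0.18 for guide 2 and -0.055 between guides, with 0 called. In genes with few counts, such as UNG, E2F1 and GINS1, standard errors of 0.35 to 0.46 left only large differences detectable.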

Other observations

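Of 29 G1 to S regulators outside the list of 35, 26 were tested and 0 called for both guides by edgeR, with 3 (11.5%) at an unadjusted p under 0.05, against 4.19% of all tested genes. Per kb of the longest transcript, the D-type cyclin gene CCND3 stood at 556 CPM per kb in the non-targeting libraries and at 543 CPM per kb with a guide, CCND2 at 10.3 and 9.41, and CCND1 at 0.223 and 0.281. CDKN1A, which encodes the cyclin-dependent kinase inhibitor p21, stood at 300 and 304 CPM per kb and CDKN1B, which encodes p27, at 13.9 and 11.9. Among E2F genes, E2F4, a repressor form, stood at 103 and 104 CPM per kb, E2F2 at 22.2 and 20.1, E2F3 at 6.70 and 6.86, and E2F1, the member of the list, at 0.443 and 0.652. The G1 to S profile of these cells at 72 h thus had CCND3, CDKN1A and E2F4 as the most abundant of the cyclin D, p21 and p27, and E2F genes named here.

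The 3 regulators with an unadjusted p under 0.05 all had negative values, as 2.4% of all tested genes did at that level, and none passed adjustment. CDK6, a kinase partner of D-type cyclins that is also on the progenitor marker list, stood at 62.6, 57.6 and 51.2 CPM in the controls, at 41.8 and 47.5 CPM with guide 1 and at 46.8 and 53.9 CPM with guide 2, a log2 fold change of -0.27 (SE 0.11). RBL1, which encodes the pocket protein p107, differed by -0.91 (SE 0.35) from a level of 2.29 CPM. E2F8, an atypical repressor form, differed by -1.07 (SE 0.41) from 1.45 CPM.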
